A study of Mus musculus with 5 samples.

Results

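The replication-dependent histone genes were followed in open-chromatin profiles of mouse bone marrow. They were taken as the core and linker histone genes of the RefSeq annotation (GRCm38.p6, the same build as mm10) that lie between 21.7 and 23.8 Mb of chromosome 13 or between 96.1 and 96.4 Mb of chromosome 3. The rule gave 64 genes of 21889 in the table used, 62 of them annotated as protein-coding and 2, H2ac14 and H2ac5-ps, as pseudogenes. By histone class there were 18 genes of H2A, 16 of H2B, 12 of H3, 12 of H4 and 6 of the linker histone H1. H4bc24 was counted with H2B, because its older symbol is Hist1h2br.

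The assay was bulk ATAC-seq, in which a transposase cuts accessible DNA and attaches adapters to it, on lineage-depleted bone marrow labelled as haematopoietic stem and progenitor cells (HSPC). All 5 libraries came from PIPC-treated mice with the genotype Mx1-Cre+, inv(16). The 2 Smc3-het libraries also carried Smc3 D/+, and the 3 Smc3-wt libraries had Smc3 +/+. Smc3 is a ring subunit of cohesin, inv(16) is named for an inversion of human acute myeloid leukaemia that joins CBFB to MYH11, and Mx1-Cre is an interferon-inducible recombinase not confined to blood stem cells, which PIPC switches on. The titles number the libraries, but no label says that they came from separate mice, so a p-value here stands only for variation among these libraries, part or all of which may be technical. The peak lists do not measure the deleted allele, and the genotype labels were therefore not checked.

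A dividing cell has to double its histones each time it copies its DNA. The replication-dependent histone genes serve this need: they lie in clusters, lack introns, are transcribed in S phase, and make mRNAs that end in a stem-loop in place of a poly(A) tail. Their transcription takes place in the histone locus body, a nuclear compartment organised by NPAT, a target of cyclin E and CDK2. H2A, H2B, H3 and H4 form the nucleosome core, and H1 binds the DNA that enters and leaves it.

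The genes lay in 4 groups separated by more than 100 kb. The first group on chromosome 13 held 19 genes (21715711 to 21837530), the second 5 genes (22035122 to 22043658) and the third 30 genes (23531044 to 23764412). The fourth group held 10 genes on chromosome 3 (96219885 to 96270192). Within the same 2 intervals lay 53 protein-coding genes that are not histone genes, of which 36 belong to Vmn1r, a family of vomeronasal receptor genes of the sensory neurons of the nose.

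The 2 Smc3-het libraries had 26885 and 36467 peaks once overlapping intervals were merged, and the 3 Smc3-wt libraries 65880, 102822 and 121224. In the same order, 3.59, 2.92, 2.74, 1.93 and 3.02 fragments per base made up the background. Levels below are the fragment pileup at a gene's highest summit, within the gene or 1 kb of it, divided by that background; a summit pileup is coverage at a base and does not grow with gene length. Of 8 HSPC marker genes, Gata2, Runx1, Meis1, Spi1 and Myb had a peak in all 5 lists, whereas Kit lacked one in Smc3-het 1, Cd34 in Smc3-het 2, and Mpo in both Smc3-het lists and in Smc3-wt 2. Csf1r, a macrophage and monocyte gene, was higher in Smc3-het relative to the median gene (1.22 on the log2 scale, limma adjusted p = 0.0384), at 11.1 and 8.90 times background against 6.56, 10.9 and 10.9. The call was lost with quantile normalization (1.01, limma adjusted p = 0.107) and with cyclic loess (0.84, limma adjusted p = 0.161). It was the 1 marker of 4 for neutrophils and monocytes with a peak in all lists, and the list's summed level was 11.1 to 17.1 in Smc3-het and 15.2 to 22.8 in Smc3-wt. The summed level of 4 erythroid markers was 22.5 to 41.7 and 88.2 to 113.7, that of 4 B cell markers 5.01 to 8.90 and 4.74 to 38.9, and that of 4 T and NK cell markers 6.68 to 7.87 and 9.48 to 23.9. For 4 markers of stroma and endothelium it was 16.4 to 33.1 and 31.7 to 53.5, and for 4 of other organs 0 to 5.29 and 8.38 to 18.7. The sum of the 8 HSPC markers was 61.5 to 84.5 in Smc3-het and 131.9 to 193.4 in Smc3-wt. All these sums are uncentred and count a missing peak as 0. Without centring, 86.3% of all tested genes were lower in both Smc3-het libraries, so the sums do not single out a cell type. The part of cell composition in the results was not tested, and in bulk cells a lower level per cell cannot be told apart from fewer cells of a type.

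Nearly every clustered histone gene was open in every library. Lists were first cut to equal size, keeping the 26885 peaks with the highest authors' −log10 p in each library. A peak was then present at 63 and 61 of the 64 histone genes for Smc3-het 1 and 2, and at 63, 62 and 63 for Smc3-wt 1, 2 and 3. The same lists marked 58.5% to 59.4% of all protein-coding genes. The other genes of the same intervals stood far below, at 11, 9, 11, 9 and 9 of 53 in that order. In the full lists 35 of these 53 neighbours had no peak in any library, and a peak appeared at 4 of the 36 Vmn1r genes. Among the genes of these intervals, peaks were thus found mainly at the histone genes, in both genotypes.

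**Figure D1:**
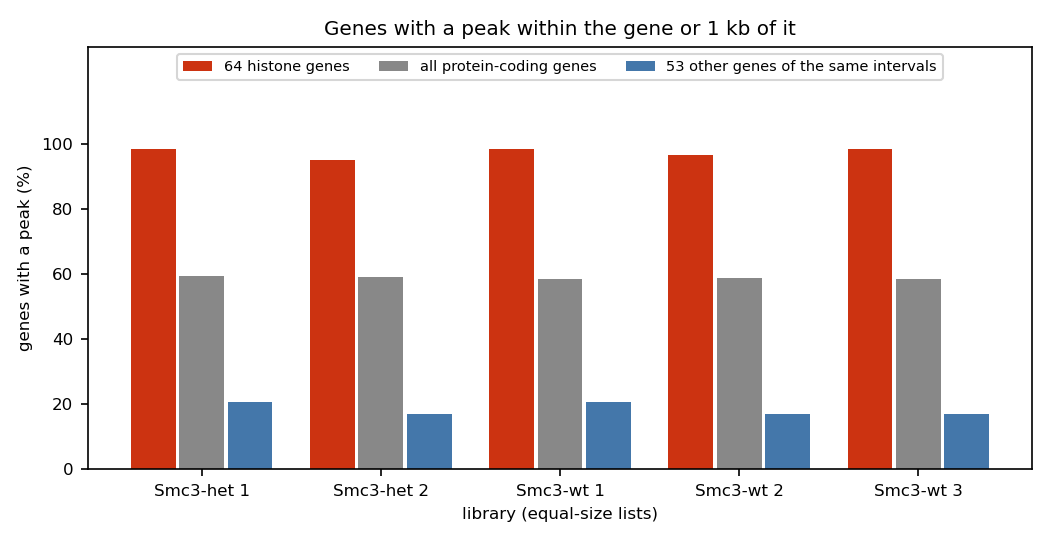
Percentage of genes with a peak within the gene or 1 kb of it in each library's equal-size list; the x axis gives the 5 libraries and the bars start at 0. The 64 histone genes (red) lie between 95.3% and 98.4%, all protein-coding genes (grey) between 58.5% and 59.4%, and the 53 other genes of the same intervals (blue) between 16.98% and 20.8%.

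The share of histone genes with a peak was 96.9% ± 2.21 (SD, n = 2) in Smc3-het and 97.9% ± 0.902 (SD, n = 3) in Smc3-wt. The difference of -1.04 percentage points was smaller than the spread between libraries. A peak in all 5 lists was found at 61 of 64 histone genes, both in the equal-size lists, where this held for 49.3% of all genes, and in the full lists, where it held for 54.3%. No histone gene had a peak in all libraries of one genotype and none of the other; in the equal-size lists this held for 0.58% of genes in favour of Smc3-wt and 0.786% in favour of Smc3-het, and in the full lists for 4.44% and 0.0503%.

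The 3 exceptions differed in kind. H4c12, which encodes histone H4, reached 13.6 times background in Smc3-het 1, 20.4, 24.4 and 21.5 in Smc3-wt 1, 2 and 3, and had no peak in Smc3-het 2. H3c4, an H3 gene, had a peak of its own (23575657 to 23576146 on chromosome 13) in the Smc3-wt libraries alone, at 27.3, 24.4 and 49.9 times background. It was the 1 region of 47 at histone genes listed in all Smc3-wt and no Smc3-het library, a pattern of 2.44% of all regions. The value of H3c4 in Smc3-het 1, 21.4, belongs to the peak of its neighbours H2ac7 and H2bc7. H1f6 encodes H1t, the linker histone of the testis, and was the 1 gene of 64 with no peak over the gene body in any list. In Smc3-wt 3 the neighbouring H4c3 peak reached into its window, with a summit 2641 bp from the H1f6 start. Over the gene body alone, 58 of 64 genes had a peak in all full lists, and the further exceptions were H3c10 and H1f1, without one in Smc3-het 1, and H2ac10, without one in Smc3-het 1 and Smc3-wt 2.

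Promoter sequences show letters that many of the histone genes, open or not, have in common beyond position. RefSeq promoters (mm10, 250 bases before and 50 bases from the start on) were matched for 57 of 64 histone genes and searched on both strands for letters known from histone promoters. Printed here are promoters of a highly open H2A and H2B gene (H2ac6, H2bc12), of H1f4 and, beside it, of H1f6, which had no peak of its own, of H4c12, which lacked a peak in 1 list, and of the genes at both ends of the genotype comparison (H4c2, H2ac20, H2ac11). Capitals mark matches to ATTTGCAT, the octamer read by OCT1, to TATAAA, to CCAAT, to AAACACA, the H1 box, or to GGTCC, part of an H4 promoter element, with matches on the other strand appearing as ATGCAAAT for the octamer, TTTATA for the TATA letters, ATTGG for CCAAT and GGACC for the H4 letters.
H2ac6 (chr13:23683910-23684209, minus strand): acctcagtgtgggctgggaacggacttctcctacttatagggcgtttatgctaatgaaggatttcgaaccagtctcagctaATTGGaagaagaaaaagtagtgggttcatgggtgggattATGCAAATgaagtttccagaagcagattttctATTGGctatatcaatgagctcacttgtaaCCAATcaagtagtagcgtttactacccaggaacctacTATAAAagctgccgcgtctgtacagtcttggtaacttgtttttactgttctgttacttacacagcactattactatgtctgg
H2bc12 (chr13:22035571-22035870, plus strand): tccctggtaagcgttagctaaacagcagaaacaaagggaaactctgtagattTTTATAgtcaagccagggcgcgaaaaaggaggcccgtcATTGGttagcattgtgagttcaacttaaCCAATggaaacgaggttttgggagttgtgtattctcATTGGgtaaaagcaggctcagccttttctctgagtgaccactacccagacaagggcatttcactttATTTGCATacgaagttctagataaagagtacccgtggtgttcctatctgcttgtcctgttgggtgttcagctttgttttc
H1f4 (chr13:23622509-23622808, minus strand): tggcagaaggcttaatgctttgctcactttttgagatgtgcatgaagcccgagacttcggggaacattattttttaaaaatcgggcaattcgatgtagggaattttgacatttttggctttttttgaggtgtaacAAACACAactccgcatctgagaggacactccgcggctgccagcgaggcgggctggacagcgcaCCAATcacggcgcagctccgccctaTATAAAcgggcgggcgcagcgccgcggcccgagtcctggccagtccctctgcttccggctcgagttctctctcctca
H1f6 (chr13:23695561-23695860, plus strand): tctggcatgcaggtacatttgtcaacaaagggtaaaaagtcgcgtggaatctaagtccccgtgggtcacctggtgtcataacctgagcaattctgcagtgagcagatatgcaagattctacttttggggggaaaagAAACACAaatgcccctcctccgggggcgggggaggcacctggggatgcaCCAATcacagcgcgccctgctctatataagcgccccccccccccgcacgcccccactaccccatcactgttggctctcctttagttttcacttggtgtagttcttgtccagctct
H4c12 (chr13:21750504-21750803, minus strand): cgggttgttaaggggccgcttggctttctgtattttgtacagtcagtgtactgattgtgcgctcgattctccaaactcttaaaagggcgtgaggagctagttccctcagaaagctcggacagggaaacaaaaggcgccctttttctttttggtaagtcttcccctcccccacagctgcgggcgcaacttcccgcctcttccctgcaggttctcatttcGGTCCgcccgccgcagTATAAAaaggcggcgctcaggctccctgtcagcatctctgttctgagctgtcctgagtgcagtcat
H4c2 (chr13:23756687-23756986, plus strand): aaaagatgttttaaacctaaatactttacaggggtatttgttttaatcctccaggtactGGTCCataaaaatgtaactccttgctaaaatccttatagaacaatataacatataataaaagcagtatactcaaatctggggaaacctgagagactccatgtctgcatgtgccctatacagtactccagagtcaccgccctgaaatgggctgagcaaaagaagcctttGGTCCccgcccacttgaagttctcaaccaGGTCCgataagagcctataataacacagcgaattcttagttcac
H2ac20 (chr3:96220831-96221130, minus strand): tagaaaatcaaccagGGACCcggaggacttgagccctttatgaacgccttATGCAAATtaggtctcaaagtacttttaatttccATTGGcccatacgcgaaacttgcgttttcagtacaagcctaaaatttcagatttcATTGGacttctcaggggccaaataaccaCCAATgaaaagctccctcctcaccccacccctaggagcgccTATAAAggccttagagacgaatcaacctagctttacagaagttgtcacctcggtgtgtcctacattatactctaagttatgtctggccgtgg
H2ac11 (chr13:22042900-22043199, minus strand): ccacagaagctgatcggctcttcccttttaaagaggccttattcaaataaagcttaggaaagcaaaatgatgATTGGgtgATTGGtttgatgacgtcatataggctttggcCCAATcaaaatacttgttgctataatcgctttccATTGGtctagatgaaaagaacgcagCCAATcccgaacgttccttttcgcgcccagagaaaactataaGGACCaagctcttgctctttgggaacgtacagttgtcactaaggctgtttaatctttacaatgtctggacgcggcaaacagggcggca

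In H2bc12 the octamer began 30 bases before the start, and in H2ac6 its other-strand form began 130 bases before it, in front of TATAAA at 32. Across the histone genes the octamer was present in 11 of 57, against 1.74% of all 32851 promoters of the table, and all 11 were genes of H2A (5) or H2B (6). CCAAT was present in 49 of 57, including every matched H1, H2A, H2B and H3 gene but only 3 of 11 H4 genes, against 37.4% of all promoters. TATAAA was present in 32 of 57, against 13.6%. The H1 box was present in 5 of 6 H1 genes and in 7 of 57 genes in all, against 7.18% of promoters. GGTCC was common everywhere, in 45.5% of all promoters and in 25 of 57 histone promoters, of which 10 were among the 11 matched H4 genes. All these counts are of genes and not of sites. Where an H2A and an H2B start face each other the promoters overlap, so a site can count for both. H2ac12 and H2bc12 shared a run of 277 bases and H2ac8 and H2bc8 one of 279, and each of these genes held the octamer.

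H1f4 and H1f6 held the same pair of letters at nearly the same places, although a peak covered H1f4 in every library and H1f6 had none of its own. AAACACA began 115 and 114 bases before the start, and CCAAT 52 and 65 bases before it. H1f4 also had TATAAA at 27, for which no exact match was found in the H1f6 window. The H1f4 window was at 18.7 and 25.7 times background in Smc3-het, against 26.2, 43.1 and 52.2 in Smc3-wt. Only in Smc3-wt 1 was the summit near the H1f4 start, at 224 bp. In the other libraries it lay 1021 to 1249 bp past that start. There it also gave H2bc6 its value, so these levels are not those of the H1f4 promoter alone. These matches describe the letters only; nothing here measured binding.

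The GC content of histone promoters was low. Over 58 promoter entries their median GC content was 45.5%, against 52.7% over all promoters of the table, and the median number of CpG per 300 bases was 11.5 against 7. The 9654 genes of the test with a promoter entry, all with a peak in every list, had medians of 61% GC and 21 CpG, both above the histone medians.

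Many of the genes share their open chromatin. Among the 57 genes whose start and strand are in the promoter table, the starts faced each other within 500 bp in 9 pairs, each of an H2A and an H2B gene; the other 7 genes were not assessed. The 2 starts were 163 bp apart in H2ac15 and H2bc15 and up to 267 bp apart in H2ac24 and H4bc24. Both genes of a pair took their value from the same peak in every library, and its summit lay within 225 bp of the midpoint. The summit fell between the starts in 23 of 45 cases (9 pairs in 5 libraries), so these data give the pair 1 value and not 1 for each gene. H2ac15 and H2bc15, for example, stood at 23.7 and 29.1 times background in Smc3-het, against 58.7, 56.6 and 77.4 in Smc3-wt.

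Peaks spanning neighbouring genes were the rule. Over the 5 full lists, overlapping peaks merged into 47 regions at histone genes, of which 35 (74.5%) were present in all 5 libraries; over the genome this held for 6.30% of 232104 regions. Of these 35 regions, 23 touched 2 or more histone genes and none more than 3. In consequence, 42 of the 64 genes had the same highest peak as another histone gene in every library. Distinct peaks in the equal-size lists numbered 43 and 46 in Smc3-het, against 44, 43 and 40 in Smc3-wt. The means were 44.5 ± 2.12 (SD, n = 2) and 42.3 ± 2.08 (SD, n = 3), so the difference of 2.17 peaks was close to the spread within each genotype.

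Histone gene peaks were broad. Their median width was 895 and 871 bp in the Smc3-het lists of equal size and 1128, 1055 and 1338.5 bp in Smc3-wt, against 480, 541, 729, 689 and 837 bp for all peaks of the same lists. The widths differed between libraries for histone genes and for all peaks alike. Summits lay near the starts: 66.7% to 70.4% of the 54 histone genes with a promoter entry and a peak in all lists had the summit within 250 bp of the start, close to the 64.5% to 66.03% of all such genes.

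Some of these reads cannot be assigned to 1 gene. The promoters of H2bc23 and H4bc24, 23544 bp apart, were identical over all 300 bases. H4c17 and H4c18 shared a run of 285 bases, H3c15 and H3c14 one of 231, and H2ac19 and H2ac18 one of 219. The sources used here do not say how the authors placed reads that match several sites, so values of these genes are uncertain.

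By pileup over library background, the histone genes were more open than the median gene with a peak. For the 61 histone genes with a peak in all lists the median level reached 20.3 and 25.3 times background in Smc3-het against 37.2, 43.6 and 56.9 in Smc3-wt. The median over all 11883 genes with a peak in all lists was 12.5, 15.4, 26.6, 28.0 and 35.7 in the same order. The histone median was therefore 1.62, 1.64, 1.40, 1.56 and 1.59 times the gene median. By the authors' fold enrichment over local background, the order was the reverse in every library. On the log2 scale the histone median then lay at -0.27 and -0.35 relative to the median gene in Smc3-het. In Smc3-wt it lay at -0.43, -0.41 and -0.50, so the higher rank rests on the background used. Single histone genes ranged from 10.02 to 31.2 in Smc3-het 1 and from 27.1 to 77.4 in Smc3-wt 3, where the highest gene of all reached 796. In the top 10% of genes there were 13 and 5 of the 61 histone genes in Smc3-het (21.3% and 8.20%), against 0, 2 and 0 in Smc3-wt.

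**Figure D2:**
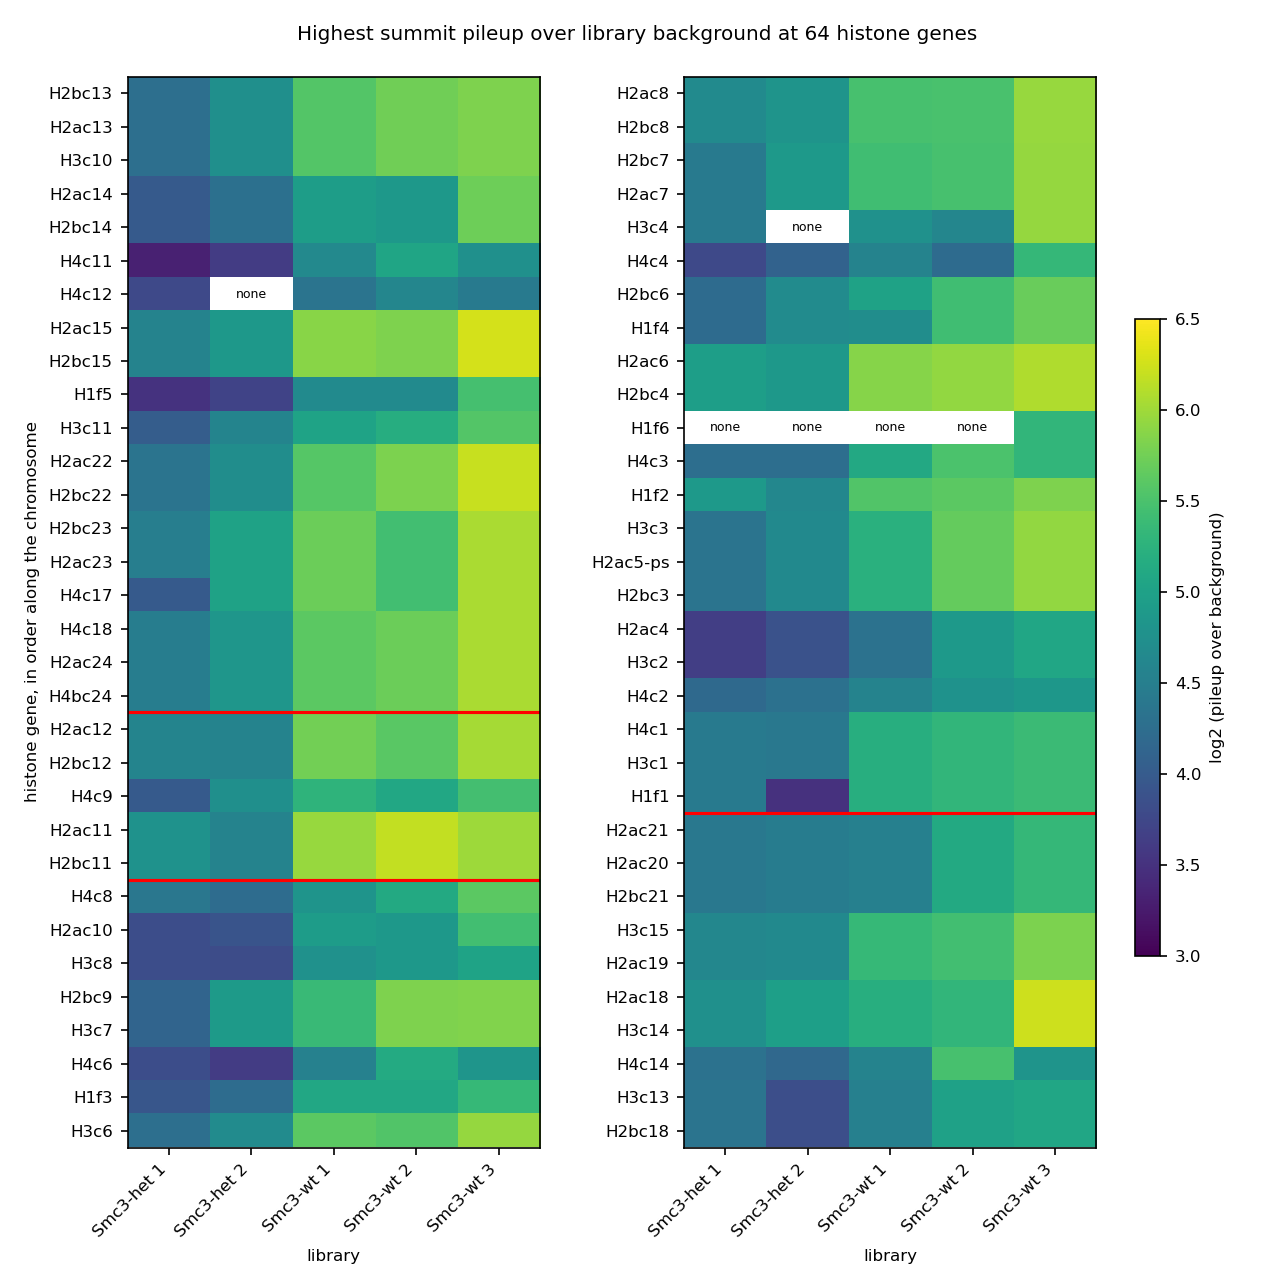
Colour gives the log2 of the highest summit pileup over library background at each of the 64 histone genes (y axis, in chromosome order, with red lines between the 4 groups) in each library (x axis); white cells marked none have no peak. Of 61 genes with a peak throughout, 44 are lowest in Smc3-het 1 and 55 highest in Smc3-wt 3, and neighbouring genes often carry the same value because they share a peak.

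The core histones of the H2A and H2B dimer were the most open by pileup over library background. Median levels of H2A genes were 21.9, 25.8, 43.9, 44.9 and 62.0 times background from Smc3-het 1 to Smc3-wt 3, and those of H2B genes were 21.3, 26.5, 46.1, 49.8 and 62.0. H3 genes followed at 19.5, 25.3, 36.4, 39.5 and 56.2, level with H1 in Smc3-wt 2. The H1 median there was the value of H1f1, taken from the peak of H4c1 and H3c1, with a summit at -2240 bp from the H1f1 start. H4 genes stood at 18.4, 19.2, 28.1, 35.3 and 40.3, and H1 genes at 18.7, 18.8, 34.3, 39.5 and 44.3. The order of H2A and H2B against H4 and H1 held in all 5 libraries, while H2A and H2B share most of their peaks and changed places between libraries. Genes of the other classes also took values from peaks of another class, so the class medians are not separate measurements. The class order was not compared by the authors' fold enrichment.

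**Figure D3:**
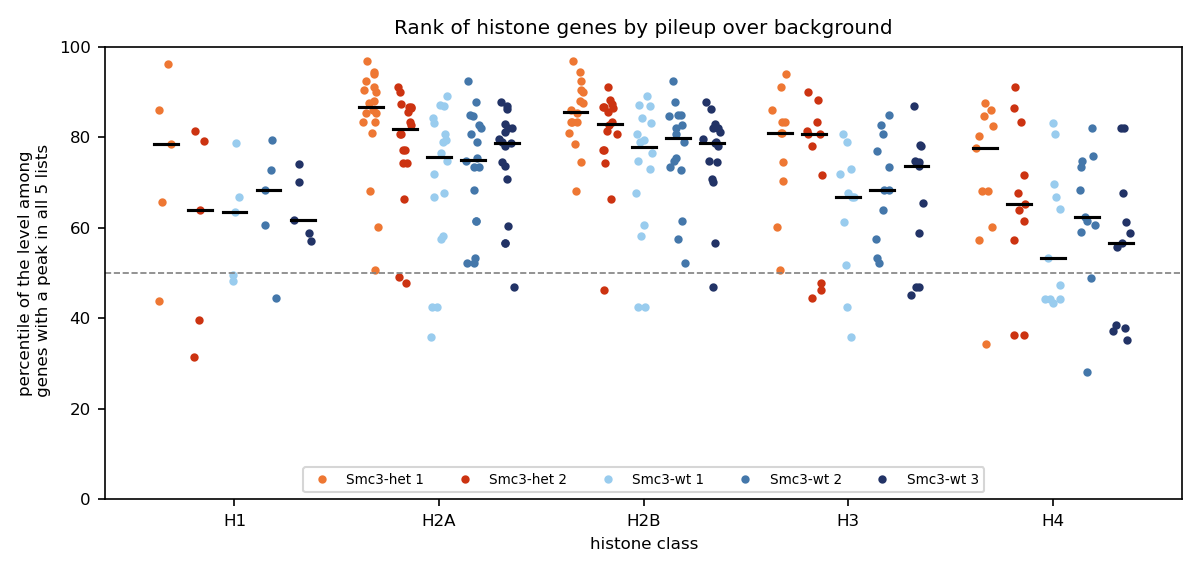
Each point is a histone gene with a peak in all 5 lists; the y axis gives the percentile of its level among all 11883 such genes in that library, grouped on the x axis by histone class and coloured by library, with black bars at the class median and a dashed line at the median gene. H2A and H2B medians lie between 75.1 and 86.8, H4 medians between 53.2 and 77.7.

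Within each class the genes ranged widely. H2ac11, an H2A gene that shares its peak with H2bc11, had the highest median level of both classes, at 27.6, 23.6, 62.0, 72.2 and 63.1 times background, whereas H2ac4 was the lowest of H2A at 12.5, 14.7, 20.05, 29.6 and 33.7. H2bc18 was the lowest of H2B at 20.3, 14.4, 22.96, 32.2 and 33.7. H3c2, the lowest H3 gene, took the same values as H2ac4. Their summit lay 45 to 199 bp from the H3c2 start in both Smc3-het libraries and in Smc3-wt 3. In Smc3-wt 1 and 2 it lay 99 and 129 bp from the H2ac4 start. The highest H3 gene by the median over libraries was H3c10 at 19.5, 26.7, 47.4, 53.5 and 56.9. H3c10 took these values from the peak of H2bc13 and H2ac13, with summits at -1556 to -1219 bp from the H3c10 start. In H4 the range ran from H4c4 at 13.6, 17.1, 23.7, 18.7 and 40.3 to H4c18 at 22.3, 28.7, 49.2, 52.4 and 66.8. The H4c18 values likewise came from the peak of H2ac24 and H4bc24, with summits at -1464 to -1285 bp from the H4c18 start. In H1 it ran from H1f5 at 11.4, 13, 25.5, 25.4 and 44.3 to H1f2, whose protein H1.2 is a common somatic H1, at 29.8, 24.6, 47.0, 49.3 and 56.5. H1f2 stood above H1f5 in every library.

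No histone gene passed the test for a difference between the genotypes. Levels as such were lower in both Smc3-het libraries than in all Smc3-wt libraries at 61 of 61 histone genes, but so were those of 86.3% of all genes. The median gene shifted by -1.11 on the log2 scale and the median histone gene by -1.05. Libraries were therefore centred on their median gene, and differences from here on are relative to it. By limma with Benjamini-Hochberg adjustment over all 11883 genes, 0 of 61 histone genes had an adjusted p under 0.05, while 5.21% of all genes were lower and 1.5% higher in Smc3-het. Without Smc3-het 1 the calls over all genes fell from 619 lower and 178 higher to 11 and 2, and again 0 were histone genes. At an unadjusted p under 0.05 there were 0 histone genes lower and 4 higher, against 15.3% and 9.35% of all genes. The estimates for the histone genes lay between -0.26 and 0.63 on the log2 scale, with standard errors of 0.197 to 0.278 and 95% intervals of limma that reached 0.405 to 0.571 to either side. The smallest differences called over all genes were -0.61 and 0.67, so no gene was called at a size and sign seen at histone genes. Which size is called also depends on the standard error of each gene. With 2 against 3 libraries the count of 0 therefore does not show that the genes are alike in both genotypes. The interval reached beyond a size of 0.5 at 52 of 61 histone genes and beyond 1 at 4.

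The positive end was H4c2, an H4 gene of the third group. It stood at 18.4 and 19.8 times background in Smc3-het, against 23.7, 27.5 and 28.8 in Smc3-wt. These raw levels were lower in Smc3-het but less so than at the median gene, so the centred difference was 0.63 (SE 0.245, 95% interval 0.12 to 1.13, limma adjusted p = 0.117), with both Smc3-het libraries above all Smc3-wt libraries. Next came the shared peak of H2ac21, H2ac20 and H2bc21 on chromosome 3, at 21.2 and 22.2 in Smc3-het, against 22.96, 34.8 and 40.3 in Smc3-wt. Its centred difference was 0.55 (SE 0.239, limma adjusted p = 0.153). Neither passed the threshold, and both differences are negative if the libraries are not centred.

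The negative end was the shared peak of H2ac11 and H2bc11, whose levels are given above. It differed by -0.26 (SE 0.219, limma adjusted p = 0.485). H4c11 followed at 10.02 and 12.3 times background in Smc3-het, against 25.1, 33.2 and 27.1 in Smc3-wt, a centred difference of -0.24 (SE 0.273, limma adjusted p = 0.608). The lowest raw level among the 61 genes in Smc3-het 1 was that of H4c11.

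The histone genes as a set lay close to the median gene. Their median centred difference was 0.054 on the log2 scale, and it was above 0 at 38 of 61 genes, against 49.8% of all genes. Both Smc3-het libraries lay above all Smc3-wt libraries at 8 of 61 genes and below them at 4, against 18.7% and 22.7% of all genes. With quantile normalization, which gives every library the same distribution of levels, the median was 0.19 with 55 of 61 above 0. The counts without overlap then became 25 above and 1 below, against 18.3% and 18.2% of all genes, and still 0 histone genes passed the threshold, against 0.539% of all genes lower and 0.522% higher.

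The centred difference depended on the level of a gene, for all genes. Split by level into 10 groups of equal size, the median over all genes fell from 0.50 in the lowest group to -0.43 in the highest. All 61 histone genes lay in groups 5 to 10, with 27 in group 9, where the median was -0.26. Beside genes of the same level, 54 of 61 histone genes lay above the median of their group. This level dependence moved with the differences of single genes, and its part in them was not tested.

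**Figure D4:**
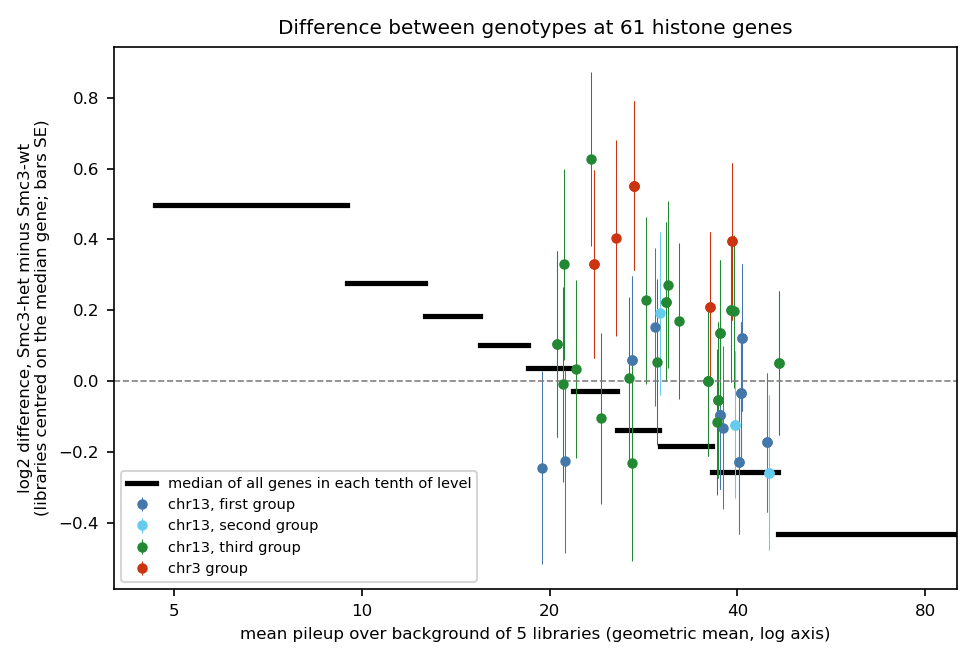
Points are the 61 histone genes with a peak in all lists, coloured by position group; the x axis is the geometric mean of the level over 5 libraries (log axis), the y axis the log2 difference Smc3-het minus Smc3-wt after centring, and bars are standard errors. Black steps give the median of all genes in each of 10 level groups, falling from 0.50 to -0.43; the 10 genes of chromosome 3 (red) all lie above 0.

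The centred differences varied with position. The centred difference was above 0 at 10 of 10 genes on chromosome 3, with a median of 0.39. On chromosome 13 the median was -0.096 in the first group (5 of 18 above 0), -0.12 in the second (1 of 5) and 0.079 in the third (22 of 28). Over the 51 genes of chromosome 13 it was 0.0015, with 28 above 0. With quantile normalization the medians of the first and second group changed sign, to 0.10 and 0.11, and those of the third group and of chromosome 3 were 0.27 and 0.57. With 1 library left out at a time, the chromosome 3 median ran from 0.27 (8 of 10 above 0, without Smc3-het 1) to 0.64 (without Smc3-het 2), whereas the second group turned to 0.0021 without Smc3-het 2 and the first stood at -0.0079 without Smc3-het 1. The genes of a group share peaks and a neighbourhood, so they are not replicates, and the difference between groups was not tested.

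The 10 genes of chromosome 3 rest on 5 regions. H3c15 and H2ac19 stood at 24.5 and 25.3 times background in Smc3-het, against 40.5, 43.6 and 56.2 in Smc3-wt. H2ac18 and H3c14 stood at 27 and 31.5, against 36.4, 39.5 and 75.4. H4c14 had 20.04 and 18.1, against 23.7, 44.7 and 28.1, and H3c13 shared 20.3 and 14.4, against 22.96, 32.2 and 33.7, with H2bc18. In raw levels each of these regions was lower in both Smc3-het libraries than in every Smc3-wt library. Relative to the median gene, the median over the 10 genes was 0.76 and 0.53 in Smc3-het, against -0.19, 0.40 and 0.18 in Smc3-wt, on the log2 scale, without overlap. Singly, H2ac18 with H3c14, H4c14, and H3c13 with H2bc18 did overlap. Over all genes, 18.7% lay above all Smc3-wt libraries in both Smc3-het libraries. The medians of the third chromosome 13 group did not overlap either, at 0.67 and 0.70 in Smc3-het against 0.45, 0.65 and 0.55 in Smc3-wt.

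Differences of other genes near the groups were set beside these, without a test. Within 1 Mb of the chromosome 3 group, 38 other genes had a median difference of 0.31, with 28 above 0. All 566 other genes of chromosome 3, these 38 included, had a median of -0.18. Within 1 Mb of the chromosome 13 groups, 14 other genes had a median of -0.028. All 442 other genes of that chromosome, these 14 included, had one of -0.21. The medians of the 19 autosomes ran from -0.21 to 0.33. Promoter GC content differed between the 2 places, with a median of 55.8% at the 8 matched histone genes of chromosome 3 and 45.2% at the 46 of chromosome 13. In the lowest of 5 GC groups the 4 genes of chromosome 3 had a median of 0.44, and the 43 of chromosome 13 one of 0.0015, beside -0.056 for all genes of that group.

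**Figure D5:**
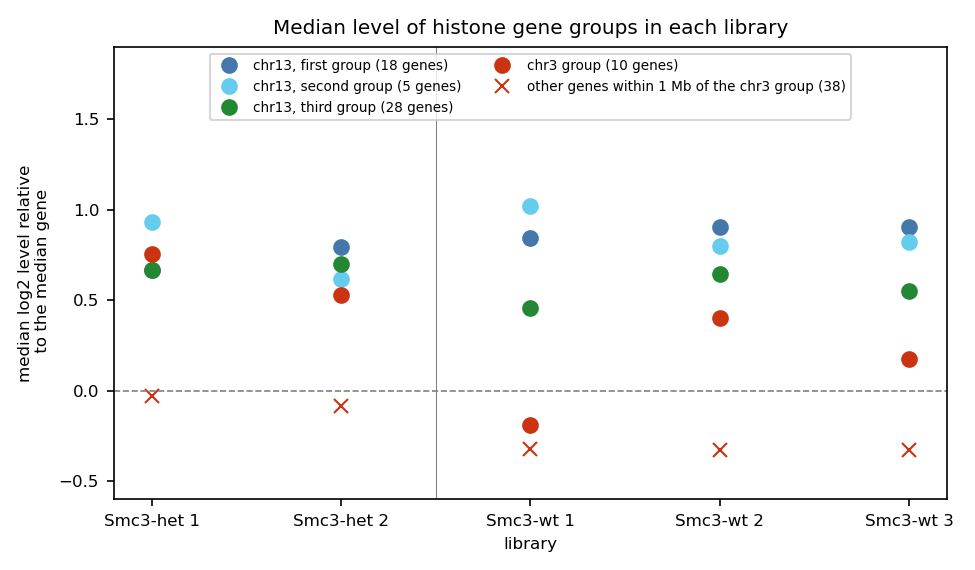
The y axis gives the median log2 level relative to the median gene (dashed line) for the 4 position groups of histone genes (circles) and for 38 other genes within 1 Mb of the chromosome 3 group (crosses); the x axis gives the libraries, with a thin line between genotypes. The chromosome 3 histone genes lie at 0.76 and 0.53 in Smc3-het, against -0.19, 0.40 and 0.18 in Smc3-wt. The third chromosome 13 group lies at 0.67 and 0.70 in Smc3-het, against 0.45, 0.65 and 0.55 in Smc3-wt.

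Histone genes outside the clusters and genes for histone supply gave few calls. The list of replacement and other variant histones, most of which are also made outside S phase, had 9 of 11 genes with a peak in all lists, of which 0 were called by limma; at an unadjusted p under 0.05 there were 3, beside the 15.3% of all genes lower and 9.35% higher. H2az1, which encodes H2A.Z, stood at 25.9 and 32.5 times background in Smc3-het, against 63.4, 114 and 106 in Smc3-wt (difference -0.55, SE 0.212, limma adjusted p = 0.109). H3f3a, a gene of the replacement histone H3.3, stood at 19.5 and 18.5 against 24.1, 27.5 and 32.1 (0.56, SE 0.245, limma adjusted p = 0.157). The third was H2aj, an H2A variant, at 12.8 and 20.9 against 53.6, 47.8 and 72.1 (-0.70, SE 0.219, limma adjusted p = 0.0531). Of the 3 histone genes outside the clusters, H2aw and H4f16 were tested with differences of -0.078 and -0.43, and H2bu2 had no peak in Smc3-het 1.

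The factors that transcribe histone genes and process their mRNAs were open in every library. All 20 had a peak in all lists and 0 were called by limma, with 6 at an unadjusted p under 0.05, where 15.3% of all genes were lower and 9.35% higher. Their median difference was -0.17, with 6 of 20 above 0. Npat, whose product organises the histone locus body, stood at 29.2 and 34.2 times background in Smc3-het, against 45.2, 61.8 and 78.4 in Smc3-wt, a difference of 0.17 (SE 0.202). Slbp, which encodes the stem-loop binding protein, differed by 0.29 (SE 0.214). Casp8ap2, whose product FLASH works in the histone locus body, and Lsm11, of the U7 snRNP that cuts histone pre-mRNA, differed by -0.59 (SE 0.197, limma adjusted p = 0.0667) and -0.69 (SE 0.233, limma adjusted p = 0.0687).

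Of 16 histone chaperones and import factors, 15 were tested and 1, Hjurp, the chaperone of the centromeric histone CENP-A, was lower in Smc3-het. It stood at 66.8 and 108 times background in Smc3-het, against 295, 259 and 336 in Smc3-wt (-0.69, SE 0.194, limma adjusted p = 0.0353). With quantile normalization the Hjurp difference was -0.74 (limma adjusted p = 0.00515), and with cyclic loess, chosen after the values were seen, it was 0.011. Among the 53 neighbours of the clusters, 9 were tested and Zfp322a, a zinc finger gene, was lower, at 15.0 and 20.5 against 50.3, 65.4 and 76.4 (-0.74, SE 0.209, limma adjusted p = 0.0355). Zfp322a missed the threshold with quantile normalization (-0.57, limma adjusted p = 0.148). Over all tested genes 5.21% were called lower, so 1 call of 15 and 1 of 9 do not set these lists apart.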

How the data were processed

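Bulk ATAC-seq peak lists of 2 Smc3-het and 3 Smc3-wt libraries were used, 1 list per library. Per the submitters' processing notes, the authors used Bowtie2, MACS2 and the mm10 build; the sources used here give no versions and say nothing on duplicates or on reads with several matches. The deposited signal is the fragment pileup at each summit in whole numbers, and the deposited fold enrichment is its ratio to local background, per the file headers. The headers of 2 columns were lost, and by order and values these deposited columns are −log10 p and −log10 q. All are the authors' values for each peak.

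Only peaks of chromosomes 1 to 19 and of X and Y entered. Mapped fragments per library were not used here, so depth is given as background coverage, solved from pileup and fold with MACS2's pseudocount of 1; no counting intervals were made. A gene took the highest pileup over background of peaks within 1 kb. Genes with a peak in 5 of 5 lists were tested on the log2 scale with limma 3.58.1 (trend, R 4.3.3), centred on the median gene, threshold 0.05 after Benjamini-Hochberg adjustment over all genes; the script was tested on simulated data. Shares and medians over histone genes carry no test.

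The histone genes, comparison lists and tests were chosen with earlier results of these data known. Named genes were those called, the 3 most positive and 3 most negative, the highest and lowest of each class, those with a peak in some lists, the testis type, up to 4 of each list in order and those called; other named genes were chosen after their values were seen. Replicate numbers did not pair the libraries. The gene table gives no exons, so none are named.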

Additional observations from a re-analysis of the deposited data

How the results depend on the processing

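The share of histone genes with a peak differed by -1.04 points (Smc3-het minus Smc3-wt) and moved to 1.82 when 13442 peaks were kept per list, to -2.86 and -7.03 for minimum −log10 q values of 5 and 10, and -2.60 without the 1 kb extension. Ranking by the authors' fold in place of −log10 p moved it to 19.5, since 98.4%, 90.6%, 82.8%, 68.8% and 73.4% of histone genes then kept a peak. Leaving out 1 library gave -2.60 to 0.521. Distinct peaks differed by 2.17, by -0.833 in full lists, -1.5 and -4.5 at the q limits, 12.5 by fold and 0.667 to 3.67 with 1 library left out; these 2 directions therefore rest on the list used. The median difference of 0.054 was 0.19 with quantile normalization, 0.23 with cyclic loess, 0.21 with quantile normalization of union regions (both added after seeing the data), 0.14 for the authors' fold and 0.011 to 0.078 with 1 library left out. It was -1.05 without centring, which called 56 histone genes lower and turned H1f2 to -0.91, H2ac4 and H3c2 to -0.9996, H2bc18 to -0.77 and H4c4 to -0.77. Under each of the 17 other alternatives 0 histone genes were called in either direction, and the smallest adjusted p of any histone gene ran from 0.0768 to 0.467. Because the fit called no gene with a difference between -0.61 and 0.67, these counts of 0 say nothing about stability.

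A fit with the replicate number as a block, in which Smc3-wt 3 has no partner, gave a median of 0.037, a share difference of -0.781, 1 distinct peak more, and 0 histone genes called. Deviations of same-numbered libraries correlated by -0.0974 and -0.0760, so the numbers were not taken as pairs.

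Over all genes, 619 were called lower and 178 higher. The counts were 201 and 62 with the block, 64 and 62 with quantile normalization, 83 and 104 with cyclic loess, 4 and 16 without the variance trend, 0 and 8 for the authors' fold, and 9153 and 5 without centring. Without Smc3-het 1 they were 11 and 2, without Smc3-het 2 1196 and 206, and without Smc3-wt 1, 2 or 3 they were 36 and 21, 312 and 187, and 141 and 41. Calls over all genes thus rest on single libraries, and the background percentages beside the histone counts move with them. For 14 named histone genes, 209 values under alternatives gave 173 on the same side in direction and call, 25 changes of sign in differences that were not called, 6 calls gained, all without centring, and the 5 reversals above.

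Peak lists omit sites below the caller's limit: the lowest level listed was 2.98 to 3.63 times background, so a gene without a peak is not shown to be closed.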

Other observations

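H3c4 was singled out after its values were seen. A peak over the H3c4 gene body was listed in 3 of 3 Smc3-wt libraries and 0 of 2 Smc3-het libraries, at 27.3, 24.4 and 49.9 times background. The lowest levels listed anywhere in Smc3-het were 3.34 and 3.42, but these are not the limit at this site. Over local background, the authors' fold at H3c4 was only 3.48 and 2.64 in Smc3-wt 1 and 2. The level that a Smc3-het peak needed here was not measured. Among 5702 regions listed in all Smc3-wt libraries at or above the lowest H3c4 level, 12 (0.21%) were absent from both Smc3-het lists, and of the 29 at histone genes this held for 1, H3c4. The limit used here was the H3c4 value itself, so H3c4 had to be among the 12, and the share does not measure how rare its pattern is. Without that limit the share was 2.44% of all regions, beside 1 of 47 at histone genes. The region covers most of the gene, and H3 coding sequences are near copies of each other, so the placement of reads that match several genes bears on it and was not tested.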
